A study of Mus musculus with 15 samples.

Results

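The genes described here set 3 sorted stromal populations of the mouse apart, in every library, from endothelium and epithelium. RPKM, a read density scaled to transcript length and to the mapped reads of the library, was summed per gene symbol, and a gene was taken when its 9 stromal values all lay above, or all below, its values in the 6 other libraries. Of 9981 genes that reached an RPKM of 1 in 3 or more of the 15 libraries, 234 (2.34%) lay above and 138 (1.38%) below, so that 372 genes made up the set. These shares are the background for every count of such genes given here, and the stromal difference itself is described rather than tested in them, because it chose them.

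All cells came from C57BL/6 mice carrying a heterozygous Il33-citrine reporter, in which citrine fluorescence marks cells that transcribe the alarmin gene Il33. Neither a treatment nor the age of the mice was stated. Mesenchymal stromal cells (MSC) were sorted as lineage-negative CD45- Epcam- CD31- CD24- cells that carried PDGFRα, CD34, Sca1 and podoplanin. They were taken from mesenteric white adipose tissue (WAT) as Il33-citrine+ and Il33-citrine- fractions (Il33+ and Il33- WAT-MSC) and from lung as the citrine+ fraction (lung Il33+ MSC). The comparison cells were CD31+ Epcam- endothelial cells of WAT and Epcam+ epithelial cells of lung, both CD45- and with no citrine gate stated. The gates were stated for cells of WAT, and the same gates are taken here for the cells labelled as lung. Each of the 5 populations had 3 libraries from independent experiments, with no number of mice given for a library, so p-values measure the spread between these libraries. Endothelium was sampled only from WAT and epithelium only from lung, so cell lineage and organ cannot be told apart within the 6 other libraries.

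Fibroblastic stromal cells build the interstitial matrix of an organ, secrete the enzymes that cut and cross-link it, and signal to vessels, epithelium and immune cells. Endothelial and epithelial cells instead form continuous sheets that are sealed by junctional complexes, anchored to a basement membrane through laminin receptors, and polarised between a free and an attached surface. A core that holds for stroma of a fat depot and of the lung is therefore read against both kinds of sheet.

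Libraries held 42711843 to 60773158 alignments (median 53038567), and no deposited column gave read counts, so the counting error of a single low RPKM was not computed. Correlation of log2 values between libraries of a population ran from 0.773 to 0.962. A single secretoglobin gene, Scgb1a1 of airway club cells, took 57.7 to 62.9% of the summed RPKM of the epithelial libraries, and endothelial replicate 1 listed 11% of genes at 0. The sort markers served as a check of the labels. Pdgfra lay between 40.6 and 122 RPKM in the stromal libraries, between 24.4 and 35.7 in the endothelial and between 3.00 and 8.42 in the epithelial ones. Epcam was at most 0.28 RPKM outside the epithelial libraries. Pecam1 (CD31) was 145 to 198 RPKM in the endothelial libraries, against 0.71 to 12.9 in the stromal and 12.4 to 19.1 in the epithelial ones. Cd34, Ly6a (Sca1) and Pdpn overlapped between stromal and endothelial libraries, so these 3 gate markers were not part of the set. Il33 was 38.7 to 78.5 RPKM in Il33+ WAT-MSC, 43.0 to 55.7 in lung Il33+ MSC and 4.31 to 6.76 in Il33- WAT-MSC.

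The sums of marker lists showed which other cells the RNA may have come from. The 15 stromal markers summed to 5670 to 11000 RPKM in the stromal libraries, to 182 to 296 in the epithelial ones and to 2560, 2980 and 5280 in endothelial replicates 1, 2 and 3, with no marker at 0 throughout a population. The 18 endothelial markers summed to 1010 to 1190 RPKM in endothelial libraries, to 26.2 to 115 in stromal ones and to 89.6 to 139 in epithelial ones. The part of endothelial RNA of the epithelial libraries in the genes below was not tested. Stromal transcripts were thus well measured in the CD31+ fraction, and the part of this in the results was not tested. In bulk samples, fewer cells of a type and less RNA per cell cannot be told apart.

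The genes above the other cells were abundant ones. Their median stromal mean was 25.1 RPKM and their median mean in the others 8.27 RPKM, against 4.07 and 4.46 for all genes tested. The genes below were mostly close to silent in stroma, with a median stromal mean of 0.99 RPKM against 9.0 in the others. On the log2(RPKM + 1) scale, which understates the change of low genes, the median difference between stromal and other populations was 1.74 for genes above (range 0.49 to 4.08) and -1.92 for genes below (range -4.92 to -0.46). The gap, defined as the log2 distance between the nearest stromal and the nearest other library, was narrow for most. It reached 1, which is a 2-fold distance on that scale, for 3 genes above and 27 genes below, and it stayed under 0.1 for 68 and 19 genes. The column names place 8 libraries on sequencing lane 1 and 7 on lane 2. Within lane 1 alone 912 genes lay above and 269 below, and within lane 2 alone 1005 and 865, where fewer libraries make the rule easier to meet.

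**Figure D1:**
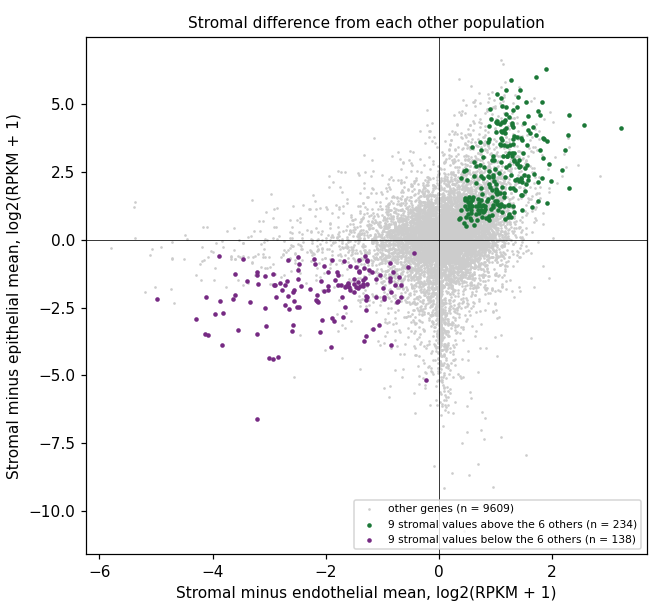
Each point is 1 of the genes tested, placed by the stromal mean minus the endothelial mean (horizontal axis) and minus the epithelial mean (vertical axis), both in log2(RPKM + 1). The 234 genes above (green) spread further along the epithelial axis, with a median of 2.29, than along the endothelial axis, with a median of 1.10, whereas the 138 genes below (purple) had medians of -1.75 and -1.89.

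Plxdc2, Mmp2 and Gsn were the 3 genes above with a gap of at least 1. Plxdc2 encodes a plexin-domain transmembrane protein that binds the PEDF protein. It lay between 52.4 and 104 RPKM in the stromal libraries (median 71.3), at 19.9, 19.4 and 21.8 RPKM in the endothelial libraries and at 6.60, 6.05 and 6.79 RPKM in the epithelial ones. The lowest stromal library was thus more than 2-fold above each of the 6 others. Mmp2, the gelatinase that degrades type IV collagen and denatured collagens, ran from 155 to 275 RPKM in stroma (median 202), was 52.2, 57.9 and 70.4 RPKM in endothelial libraries and 7.51, 5.89 and 9.74 RPKM in epithelial ones. Gsn, which encodes the actin-severing protein gelsolin in a cytoplasmic and a plasma form, ran from 2116 to 2968 RPKM in stroma (median 2747), against 891, 572 and 1042 in endothelial and 161, 111 and 170 RPKM in epithelial libraries. For each of these genes the order was the same, with stroma highest, endothelium between and epithelium lowest.

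Mmp14, the membrane-anchored protease that activates the Mmp2 proenzyme, was also among the 12 widest gaps. Its stromal values ran from 54.8 to 90.5 RPKM (median 70.7), and it stood at 25.4, 26.8 and 31.5 RPKM in endothelial and 5.11, 3.11 and 4.45 RPKM in epithelial libraries. The activator and its substrate therefore shared both the order and the absence of overlap. Ogn (osteoglycin), a small leucine-rich proteoglycan, ran from 205 to 401 RPKM in stroma (median 266), against 123, 65.6 and 91.7 in endothelial and 17.1, 8.35 and 12.8 RPKM in epithelial libraries. Scn7a, a sodium channel family member that senses extracellular sodium, ran from 43.3 to 82.3 RPKM in stroma, and its highest other library was endothelial replicate 1 at 24.6 RPKM. Gpm6b, which encodes a proteolipid-family membrane protein better known from the nervous system, had a median of 18.3 RPKM in stroma (9.42 to 29.0). In endothelial libraries Gpm6b was 2.54, 1.97 and 4.53 RPKM and in epithelial ones 2.16, 2.44 and 1.52 RPKM, and their difference did not pass the test (limma, adjusted p = 0.343). The other genes of the 12 were Rbms3, an RNA-binding protein gene (28.5 to 40.1 RPKM in stroma, at most 15.1 elsewhere), Lhfp, a tetraspan membrane protein gene (39.8 to 63.3, at most 23.7), and Abca8a, an ABC transporter gene (46.9 to 132, at most 28.2).

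**Figure D2:**
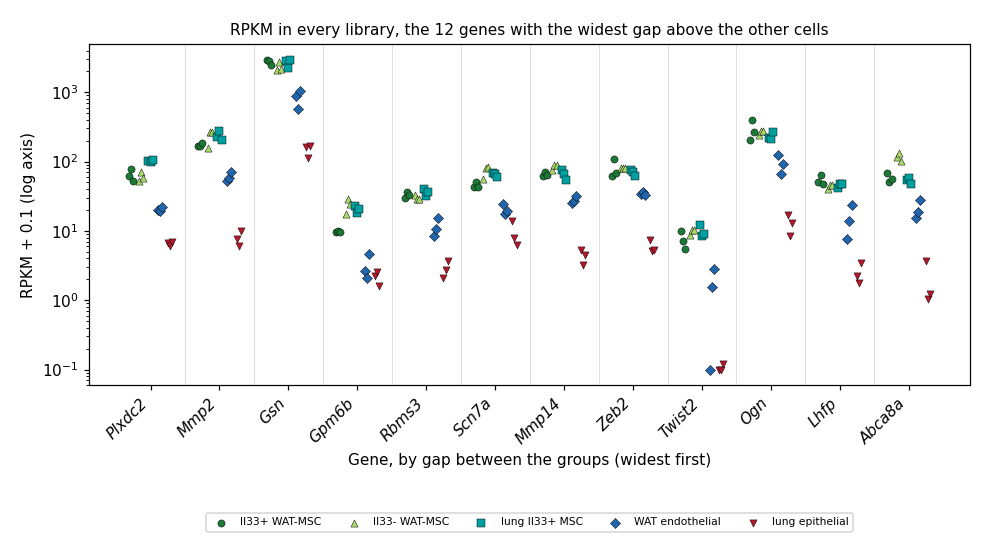
RPKM plus 0.1 on a log axis for the 12 genes with the widest gap above the other cells, with 1 point per library and a symbol and colour for each of the 5 populations. The stromal points of each gene lie above its endothelial (blue) and epithelial (red) points, as in Mmp2, where 155 RPKM was the lowest stromal and 70.4 RPKM the highest other value.

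Of the 27 listed mesenchymal transcription factors, 22 were tested, and Zeb2, Twist2 and Gli2 lay above. Zeb2, a zinc-finger repressor that binds E-boxes and represses junction genes such as Cdh1, ran from 62.1 to 108 RPKM in stroma (median 76.0), with 34.5, 35.9 and 33.4 in endothelial and 7.32, 5.09 and 5.26 RPKM in epithelial libraries. Twist2, a basic helix-loop-helix factor of the dermal and fat mesenchyme, ran from 5.41 to 12 RPKM in stroma (median 8.82). It was listed at 0, 1.43 and 2.75 RPKM in endothelial and at 0, 0 and 0.02 RPKM in epithelial libraries. Gli2, an effector of Hedgehog signalling, ran from 6.80 to 10.8 RPKM in stroma (median 7.56), against 0.77, 2.21 and 5.89 in endothelial and 0.20, 0.46 and 0.65 RPKM in epithelial libraries. The rest of the list moved against epithelium more than against endothelium. In the limma fit of all genes tested, 20 of the 22 were higher in stroma than in the mean of the other populations and none was lower, with a median log2 difference of 1.5. For all 9981 genes the fit called 21.3% higher and 16.7% lower, with a median of 0.12. The call held against endothelium and epithelium each for 8 of the 22, against 4.84% of all genes, while 2.33% of all genes were lower than each. These shares of all genes are the background for the calls in each list that follows. Osr1, an odd-skipped factor of connective tissue precursors and the member with the highest stromal mean outside the set, was 18 to 61.9 RPKM in stroma but reached 45.8 RPKM in endothelial replicate 3.

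Since Zeb2 binds E-boxes of the form CACCTG, promoters from the 12 widest gaps in each direction are shown with these letters (or CAGGTG on the other strand) in capitals. Windows are RefSeq sequences of the GRCm38.p6 assembly, from 250 bases before to 50 bases after a transcription start, 5′ to 3′ on the strand of the gene. Gsn and Mmp14 are from the genes above and Tspan2, Adgrg1 and F11r, which are described further on, from the genes below, chosen so that each direction has a window with the letters and one without.
Gsn, chr2:35266494-35266793, + strand: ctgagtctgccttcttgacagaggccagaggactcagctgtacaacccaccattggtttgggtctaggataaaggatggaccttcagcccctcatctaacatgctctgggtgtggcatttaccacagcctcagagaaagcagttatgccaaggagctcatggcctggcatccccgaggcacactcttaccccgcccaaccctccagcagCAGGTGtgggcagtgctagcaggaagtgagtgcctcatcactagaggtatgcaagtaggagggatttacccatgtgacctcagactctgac
Mmp14, chr14:54431348-54431647, + strand: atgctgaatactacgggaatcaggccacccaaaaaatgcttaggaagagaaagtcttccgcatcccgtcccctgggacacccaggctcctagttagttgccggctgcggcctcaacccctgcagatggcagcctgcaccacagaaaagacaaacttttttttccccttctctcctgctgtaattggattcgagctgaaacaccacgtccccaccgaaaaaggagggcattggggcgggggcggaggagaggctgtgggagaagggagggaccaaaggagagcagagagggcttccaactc
Tspan2, chr3:102734520-102734819, + strand: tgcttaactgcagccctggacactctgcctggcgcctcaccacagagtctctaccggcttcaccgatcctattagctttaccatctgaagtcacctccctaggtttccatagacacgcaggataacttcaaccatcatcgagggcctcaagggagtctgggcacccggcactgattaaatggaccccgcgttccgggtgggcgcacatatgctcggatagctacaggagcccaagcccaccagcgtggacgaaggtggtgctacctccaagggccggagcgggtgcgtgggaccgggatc
Adgrg1, chr8:94976859-94977158, + strand: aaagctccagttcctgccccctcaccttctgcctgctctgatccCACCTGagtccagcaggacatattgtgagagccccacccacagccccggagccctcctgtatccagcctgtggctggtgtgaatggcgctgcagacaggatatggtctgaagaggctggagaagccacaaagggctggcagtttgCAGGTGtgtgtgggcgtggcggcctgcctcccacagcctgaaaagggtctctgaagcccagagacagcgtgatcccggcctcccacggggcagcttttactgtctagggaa
F11r, chr1:171437311-171437610, + strand: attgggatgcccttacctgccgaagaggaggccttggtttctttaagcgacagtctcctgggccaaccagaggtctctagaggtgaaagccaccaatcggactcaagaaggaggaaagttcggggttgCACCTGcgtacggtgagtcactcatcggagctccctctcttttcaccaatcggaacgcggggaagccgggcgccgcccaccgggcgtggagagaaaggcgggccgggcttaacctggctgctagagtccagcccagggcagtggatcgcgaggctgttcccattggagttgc
The Mmp14 and Tspan2 windows held no such E-box. The Gsn window held 1, starting 41 bases before the transcription start, and the other Gsn windows (of alternative starts) none. The Adgrg1 window held 2, starting 206 and 61 bases before the transcription start, and the F11r window held 1, starting 122 bases before it, while the other Adgrg1 window held none. Of the windows matched to the 12 widest gaps, 1 of 16 above and 2 of 9 below held the letters. Over all windows that matched by symbol, CACCTG on either strand was present in 12.4% of 209 windows (167 genes) above, in 22.7% of 132 windows (95 genes) below and in 17.4% of 9670 windows (7606 genes) of all genes tested. A TATAAA, the core of a TATA box, was present in 7.18%, 16.7% and 7.59% of the same windows. For TGANTCA, the AP-1 motif, the shares were 3.35%, 7.58% and 5.62%, and for GGAATG, the TEAD motif, 14.8%, 9.85% and 12.2%. The forkhead motif TGTTTAC was in 1.91%, 1.52% and 2.62%, and the ETS motif ACCGGAAGT in 0.957%, 0.0% and 2.11%. None of these motifs contains another, several windows may belong to 1 gene, and a match describes sequence and not binding.

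The matrix lists were close to uniform in direction. All 12 fibrillar and associated collagens were higher in stroma than in the mean of the others (median log2 difference 2.94), and 9 were higher than in each of them. Only Col3a1 and Col5a2 of these 12 were free of overlap in the data as deposited. Col3a1, the chain of type III collagen, ran from 654 to 1423 RPKM in stroma (median 808), was 241, 251 and 586 RPKM in endothelial libraries and 16.6, 13.7 and 29.1 RPKM in epithelial ones. Col5a2, a chain of the type V collagen that nucleates fibrils, ran from 34.9 to 62.9 RPKM (median 44.7), against 19.0, 15.3 and 29.8 in endothelial and 1.68, 0.87 and 1.32 RPKM in epithelial libraries. The 2 genes are neighbours on chromosome 1 (45311538 to 45503282 in GRCm38.p6). Col1a1, the main chain of type I collagen, had higher values than either in several libraries, with 557 to 2646 RPKM in stroma, but endothelial replicate 3 stood at 730 RPKM and so overlapped. With that library left out, 8 of the 12 collagens lay above the other cells.

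Genes that fold and cross-link collagen followed the same course. All 16 were higher than the mean of the others (median 2.29), and 13 were higher than each. Serpinh1, the collagen chaperone HSP47, was 213 to 366 RPKM in stroma (median 228), 99.0, 120 and 177 RPKM in endothelial libraries and 7.49, 11.7 and 20.6 RPKM in epithelial ones. Sparc, a collagen-binding secreted glycoprotein, was 2471 to 5141 RPKM in stroma (median 3054) and 1101, 1320 and 2349 RPKM in endothelial libraries, with 87.5 to 155 RPKM in epithelial ones. For Lox, the lysyl oxidase that starts the cross-links, the lowest stromal library (38.9 RPKM) and endothelial replicate 1 (38.4 RPKM) were nearly equal. Lox was therefore inside the set by a margin smaller than the spread of its own replicates. Pcolce, the enhancer of the procollagen C-proteinase, was 156 to 466 RPKM in stroma and outside the set, since endothelial replicate 3 reached 222 RPKM.

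All 10 small leucine-rich proteoglycans, which coat collagen fibrils and bind growth factors, were higher than the mean of the others (median 2.81), and 7 were higher than each. Dcn (decorin) ran from 2035 to 3296 RPKM in stroma (median 2528), against 936, 916 and 1472 in endothelial and 53.1, 29.2 and 54.7 RPKM in epithelial libraries. Ecm2 ran from 67.4 to 125 RPKM, against 22.7 to 48.8 in endothelial and 0.92 to 2.05 RPKM in epithelial libraries. Podn (podocan) ran from 195 to 814 RPKM, and its lowest stromal library stood just over endothelial replicate 3 at 191 RPKM. Bgn (biglycan), abundant as it was with 788 to 3639 RPKM in stroma, overlapped with endothelial replicates 1 and 3 at 972 and 1346 RPKM. Ogn, Ecm2 and Dcn thus separated the cells by level, whereas Podn and Bgn varied more among the stromal libraries.

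All 15 elastic fibre and microfibril genes tested were higher than the mean of the others (median 2.16), and 6 were higher than each. Fbn1, the main microfibril protein, ran from 173 to 295 RPKM in stroma (median 196), against 82.4, 120 and 146 in endothelial and 8.51, 5.01 and 6.67 RPKM in epithelial libraries. Ltbp1, which tethers latent TGF-beta to microfibrils, ran from 26.8 to 69.6 RPKM (median 50.2), against 7.19, 15.2 and 18.3 in endothelial and 4.74, 1.58 and 2.45 RPKM in epithelial libraries. Mfap4 was uneven within stroma. Its mean was 1180 RPKM for lung Il33+ MSC but 78.8 RPKM for Il33- WAT-MSC, beside an endothelial mean of 155 RPKM, and it stayed outside the set.

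Among 22 other matrix glycoproteins, 20 were higher than the mean of the others and none was lower (median 2.21), and 7 lay above. Dpt (dermatopontin), which binds decorin and collagen, ran from 574 to 1129 RPKM in stroma (median 768), with 280, 349 and 469 RPKM in endothelial and 15.9, 14.5 and 21.0 RPKM in epithelial libraries. Vcan, the large proteoglycan versican, ran from 52.9 to 108 RPKM (median 79.0), with 27.7 to 39.9 in endothelial and 1.56 to 3.67 RPKM in epithelial libraries. Srpx, a sushi-repeat secreted protein gene, showed the steeper contrast to vessels. It ran from 21.3 to 54.3 RPKM in stroma and was 1.07, 6.66 and 14.9 RPKM in endothelial libraries. Abi3bp (34.8 to 86.3 RPKM in stroma), Svep1, Spon1 and Smoc2 completed the 7.

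Proteases and their inhibitors gave 6 of 17 genes above, and all 17 were higher than the mean of the others (median 2.48). Beside Mmp2 and Mmp14 these were Htra1 and Adamts5, which cleave proteoglycans, and the inhibitors Timp2 and Reck. Timp2, which inhibits Mmp2 and is also needed for its activation by Mmp14, ran from 492 to 1002 RPKM in stroma (median 754), with 409, 361 and 419 in endothelial and 40.8, 39.8 and 37.8 RPKM in epithelial libraries. Reck, a membrane-anchored inhibitor of the same proteases, ran from 17.0 to 29.7 RPKM (median 26.5), with 11.9, 15.2 and 16 in endothelial libraries and at most 2.19 RPKM in epithelial ones. Protease, activator and 2 inhibitors were thus each separated in the same direction in the RPKM as deposited. Timp2 no longer met the rule after median-ratio scaling or quantile normalization, nor did Reck after median-ratio scaling. Adamts5 ran from 21.7 to 63.0 RPKM with 15.8 to 17.8 in endothelial libraries, and Htra1 from 22.6 to 39.1 RPKM with 6.25 to 18.

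The basement membrane list split by laminin chain. Of 16 genes tested, 12 were higher than the mean of the others and 2 were lower (median 2.15). Lama2, the alpha chain of the laminin of mesenchymal and muscle cells, lay above at 52.4 to 125 RPKM in stroma (median 72.9), against 19.7, 22.9 and 36.5 in endothelial and 0.96, 1.25 and 1.65 RPKM in epithelial libraries. Lama3 and Lama5, alpha chains of epithelial and vascular basement membranes, lay below. Lama3 was at most 0.27 RPKM in stroma, at 1.05, 2.72 and 2.67 RPKM in endothelial and at 1.57, 3.03 and 2.59 RPKM in epithelial libraries. Lama5 was at most 0.50 RPKM in stroma, at 0.81, 2.19 and 2.64 RPKM in endothelial and at 1.80, 2.96 and 3.10 RPKM in epithelial libraries. Both were low even where they were higher, so the separation covered only a few RPKM. Nid1 (nidogen), the member with the highest stromal mean outside the set, had means of 715 RPKM for Il33+ WAT-MSC and 803 RPKM for Il33- WAT-MSC but 234 RPKM in lung Il33+ MSC, beside 282 RPKM in endothelial libraries.

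**Figure D3:**
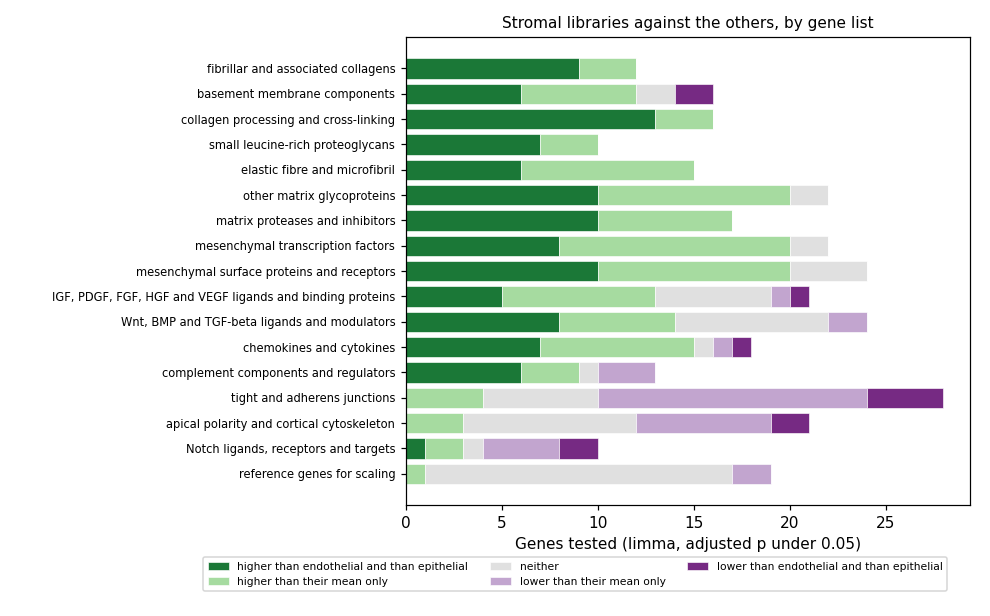
Number of genes tested in each of 17 lists, coloured by the limma call of the stromal populations against the mean of the endothelial and epithelial populations and against each of them (adjusted p under 0.05). The 12 collagens and the 16 collagen-processing genes were called higher throughout, whereas 18 of 28 junction genes were called lower.

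Of 24 surface proteins and receptors tested, 20 were higher than the mean of the others and none was lower (median 2.07), and 6 lay above. Pdgfra was used in the sort and is no result. Antxr1, a collagen-binding receptor, ran from 97.3 to 141 RPKM in stroma (median 121), with 35.8, 47.7 and 62.8 in endothelial and 17.1, 14.1 and 15.1 RPKM in epithelial libraries. Ddr2, a tyrosine kinase receptor for fibrillar collagen, ran from 53.8 to 86.7 RPKM (median 67.2), with 23.0, 36.4 and 32.1 in endothelial and 2.18, 2.32 and 2.76 RPKM in epithelial libraries. Mrc2, which takes up collagen for degradation, ran from 14.7 to 44.4 RPKM, with 0.65, 7.78 and 12.5 in endothelial libraries and at most 1.37 RPKM in epithelial ones. These 3 receptors share collagen as a ligand. Fap, the fibroblast activation protease, was low at 2.22 to 11.4 RPKM in stroma, yet no other library exceeded 1.55 RPKM. Lrp1, an endocytic receptor that clears matrix proteases, ran from 72.2 to 177 RPKM with at most 68.5 RPKM elsewhere.

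Secreted signals were less uniform. Of 21 genes for IGF, PDGF, FGF, HGF and VEGF ligands and their binding proteins, 13 were higher and 2 lower than the mean of the others (median 1.26), and none lay above in the RPKM as deposited, although 3 did after median-ratio scaling and 2 after quantile normalization. Pdgfb, the ligand through which endothelium recruits mural cells, lay below at 0 to 0.48 RPKM in stroma (median 0.03), with 3.90, 3.81 and 4.70 in endothelial and 1.08, 0.80 and 0.57 RPKM in epithelial libraries. The ligand gene was thus at or near 0 in cells sorted on a PDGF receptor. Igfbp4, the member with the highest stromal mean, had 166 to 634 RPKM in stroma but 226 RPKM in endothelial replicate 3. Of 24 Wnt, BMP and TGF-beta genes, 14 were higher and 2 lower than the mean of the others (median 1.46), and 3 lay above. Sfrp1, a secreted Wnt antagonist, ran from 113 to 338 RPKM in stroma (median 151), with 97.9, 36.4 and 80.2 in endothelial and 4.33, 2.95 and 8.80 RPKM in epithelial libraries. Fst (follistatin), an activin antagonist, ran from 6.60 to 43.8 RPKM with 0.62, 4.62 and 5.25 in endothelial libraries and 0.06 to 0.07 RPKM in epithelial ones. The third, Tgfb2, encodes a TGF-beta ligand and ran from 5.25 to 11.7 RPKM with at most 4.79 RPKM elsewhere.

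Of 18 chemokines and cytokines tested, 15 were higher and 2 lower than the mean of the others (median 1.55), and 7 were higher than each. Ccl11 (eotaxin-1), which attracts eosinophils through CCR3, had the largest log2 difference of the genes above, at 4.08. It ran from 270 to 1212 RPKM in stroma (median 431), with 87.2, 148 and 175 in endothelial and 7.17, 3.10 and 6.63 RPKM in epithelial libraries. Cxcl1, a neutrophil chemoattractant, ran from 561 to 1210 RPKM (median 722), with 472, 334 and 296 in endothelial and 20.1, 11.2 and 21.5 RPKM in epithelial libraries. Cx3cl1 (fractalkine), a membrane-bound chemokine, went the other way at 0.01 to 1.93 RPKM in stroma, 14.1, 2.85 and 7.46 in endothelial and 5.82, 5.42 and 3.31 RPKM in epithelial libraries. Ccl2 overlapped widely, with 38.3 to 370 RPKM in stroma and 126 RPKM in endothelial replicate 2. Of 13 complement genes tested, 9 were higher and 3 lower than the mean of the others (median 2.06). C1s1, the protease of the classical pathway that is listed as C1s, ran from 220 to 347 RPKM in stroma (median 286), with 127, 96 and 171 in endothelial and 6.37, 7.07 and 12.7 RPKM in epithelial libraries. C1qtnf1, a secreted C1q-like protein gene, ran from 56.5 to 115 RPKM with 34.0 to 45.4 in endothelial libraries.

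The genes below formed wider gaps at lower levels. Rassf9, which encodes a Ras-association domain protein, had the widest. It was 0.03 to 0.72 RPKM in stroma (median 0.16), 12.9, 8.75 and 10.4 in endothelial and 11.1, 14 and 12.7 RPKM in epithelial libraries. Mall, a MAL-family lipid-raft protein gene, was 0 to 1.39 RPKM in stroma (median 0.09), 18.6, 18.3 and 25.3 in endothelial and 12.8, 10.1 and 15.7 RPKM in epithelial libraries. The difference between endothelium and epithelium did not pass the test for either gene (limma, adjusted p = 0.586 for Rassf9 and 0.147 for Mall). Adgrg1 (GPR56), an adhesion G protein-coupled receptor and one of the promoters shown above, was 0.04 to 1.66 RPKM in stroma (median 0.45), 18.7, 24.5 and 26.8 in endothelial and 9.64, 20.6 and 17.2 RPKM in epithelial libraries. Tspan2, a tetraspanin gene, was 0.02 to 1.22 RPKM in stroma, 10.1 to 13.7 in endothelial and 27.9 to 33.6 RPKM in epithelial libraries. Fzd6, a Frizzled receptor of the planar polarity pathway, was 0.05 to 0.86 RPKM in stroma, 17.3, 8.24 and 9.16 in endothelial and 6.38, 7.73 and 7.38 RPKM in epithelial libraries.

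Ceacam1, a homophilic adhesion molecule, differed within stroma as well. It was 0.16 to 0.71 RPKM in the 6 WAT-MSC libraries and 3.35, 5.01 and 4.6 RPKM in lung Il33+ MSC, and 17.1 to 27.7 RPKM for the 6 others. Its difference between WAT and lung stroma was -1.97 on the log2 scale (limma fit of all genes, adjusted p = 6.09e-05). In the same libraries the 18 endothelial markers summed to 26.2 to 60.1 RPKM in WAT-MSC and 77.3 to 115 RPKM in lung Il33+ MSC, and the 20 lung epithelial markers to 61.0 to 188 and 224 to 600 RPKM. In WAT-MSC the epithelial sum was mostly 1 gene, Scgb1a1, at 56.1 to 134 RPKM, beside 72.9, 200 and 493 RPKM in lung Il33+ MSC. Both sums moved with Ceacam1, and their part in its difference was not tested. AU021092, Arhgap18 and Tm4sf1 (a tetraspan membrane protein gene of endothelium) were also among the 12 widest. Cd24a was among them too, at 1.78 to 17.8 RPKM in stroma and 55.1 to 122 and 722 to 872 RPKM in endothelial and epithelial libraries, but stromal cells were sorted as CD24- and this is no result.

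**Figure D4:**
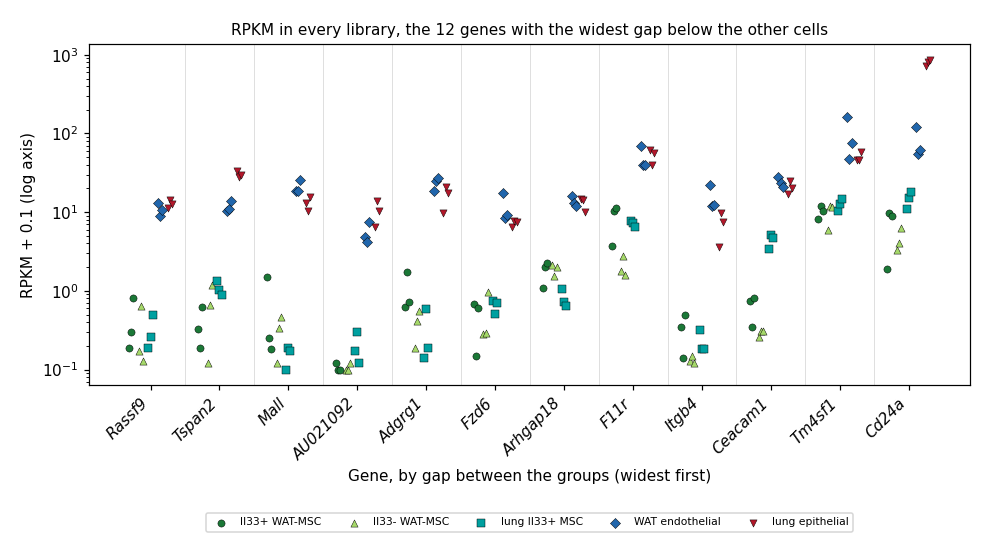
RPKM plus 0.1 on a log axis for the 12 genes with the widest gap below the other cells, with 1 point per library and a symbol and colour for each of the 5 populations. The stromal points lie at the bottom for each gene, and the endothelial (blue) and epithelial (red) points of Rassf9 mix, between 8.75 and 14 RPKM.

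The junction list had the most genes called lower. Of 28 tight and adherens junction genes tested, 18 were lower and 4 higher than the mean of the others (median -0.98), but 4 were lower than each (background 2.33%). F11r (JAM-A), a tight junction adhesion molecule of both endothelium and epithelium and another of the promoters shown, was 1.49 to 11.2 RPKM in stroma (median 6.39), 68.7, 39.4 and 40.1 in endothelial and 61.6, 39.9 and 56.4 RPKM in epithelial libraries. Ctnnb1 (beta-catenin), which links cadherins to actin and transduces Wnt signals, was 22.3 to 38.3 RPKM in stroma (median 30.3), 48.9, 48.9 and 66.6 in endothelial and 52.9, 80.1 and 82.5 RPKM in epithelial libraries. Cdh5 (VE-cadherin) was 0.14 to 16.6 RPKM in stroma, 144 to 191 in endothelial and 16.9 to 33.3 RPKM in epithelial libraries. Cdh5 is one of the endothelial markers, and epithelial libraries summed to 89.6 to 139 RPKM over the 18 of these, against 26.2 to 115 RPKM in stromal libraries. Cdh5 itself enters that sum, and the 2 ranges of the sum overlap whereas those of Cdh5 do not. The part of endothelial RNA in its place below the epithelial libraries was not tested. Ctnnd1 (p120-catenin), the junction gene with the highest stromal mean outside the set, had means of 40.9, 44.4 and 41.5 RPKM in the stromal populations and 53.5 and 42.2 RPKM in the others.

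Of 21 polarity and cortical cytoskeleton genes tested, 9 were lower and 3 higher than the mean of the others (median -0.15), and none lay above or below. Of 10 Notch pathway genes tested, 6 were lower and 3 higher (median -0.87), and 2 were lower and 1 higher than each other population. Over all genes tested, 16.7% were lower and 21.3% higher than the mean, and 2.33% and 4.84% than each. Rbpj, the DNA-binding partner of Notch, lay above at 11.3 to 19.9 RPKM in stroma, with 3.85, 8.39 and 8.40 in endothelial and 1.51, 5.02 and 4.72 RPKM in epithelial libraries. Among 19 reference genes, 1 was higher and 2 were lower than the mean of the others, none lay above or below, and the median was -0.02. After median-ratio scaling 0 were higher and 5 lower, and after quantile normalization 1 was higher and 10 lower.

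Some genes below are receptors or ligands of the sheets' attachment and uptake functions, and the ones in this paragraph and the next were chosen after their values were seen. Itgb4 (one of the 12 widest gaps) and Itga6 encode both subunits of the laminin-binding integrin alpha6 beta4. Itgb4 was at most 0.40 RPKM in stroma, 22.3, 11.8 and 12.1 in endothelial and 3.46, 9.61 and 7.36 RPKM in epithelial libraries. Itga6 was at most 0.96 RPKM in stroma, 10.9, 21.1 and 13.3 in endothelial and 2.05, 4.39 and 3.70 RPKM in epithelial libraries. Both subunits were thus highest in endothelium. Itga3, another laminin-binding integrin subunit gene, was at most 2.13 RPKM in stroma, 2.20, 5.04 and 4.18 in endothelial and 8.61 to 10.8 RPKM in epithelial libraries. Bcam, which binds the laminin alpha chain encoded by Lama5, was at most 3.36 RPKM in stroma, 24.1 to 33.9 in endothelial and 8.58 to 13 RPKM in epithelial libraries. Cd36, a fatty acid transporter, was 0.48 to 10.8 RPKM in stroma, 88.8, 102 and 113 in endothelial and 29.1, 41.9 and 47.4 RPKM in epithelial libraries.

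Epas1 (HIF-2alpha), a hypoxia-inducible factor of endothelium and alveolar cells, was 13.8 to 57.0 RPKM in stroma (median 40.6), 237, 182 and 161 in endothelial and 204, 207 and 158 RPKM in epithelial libraries. Cd74, the invariant chain of MHC class II, was 0.59 to 60.2 RPKM in stroma, 272, 264 and 186 in endothelial and 153, 245 and 387 RPKM in epithelial libraries. H2-Ab1, a class II chain, was 0.18 to 18.4 RPKM in stroma and 25.1 to 67.1 RPKM in the others. Cd74 and H2-Ab1 belong to the leukocyte markers, of which 11 of 20 were listed. Those 11 summed to 14.6 to 104 RPKM in WAT-MSC and 260 to 306 in lung Il33+ MSC. In endothelial libraries they summed to 285 to 512 and in epithelial ones to 942 to 1860 RPKM. Both class II genes enter that sum, and Cd74 alone was 272 of the 314 RPKM in endothelial replicate 1. Lyz2, another member, was 105 to 145 RPKM in lung Il33+ MSC, 7.59 to 94.8 in endothelial and 658 to 1301 RPKM in epithelial libraries. In epithelial libraries the sum was mostly Lyz2 and Cd74, with each other listed member at most 66.7 RPKM. Chil3, Marco and Ear1 reached 48.1, 3.27 and 11.2 RPKM there, against 56.9, 3.44 and 15.1 RPKM in lung Il33+ MSC. The highest values of Cd68, Csf1r, Fcer1g, Tyrobp and Laptm5 were instead larger in epithelial libraries than in lung Il33+ MSC. The part of leukocyte RNA in the class II genes was not tested.

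The endothelial libraries set the upper edge of the genes above. Expressed as a percent of the mean of the 9 stromal libraries, the 234 genes had medians of 34.0%, 43.6% and 56.9% in endothelial replicates 1, 2 and 3 and of 12%, 12.1% and 13.1% in the epithelial libraries. Over genes, the endothelial mean ran from 5.54% (Htra4) to 75.6% (Zhx3), and it was under 25% for 21 genes, between 25 and 50% for 131 and at least 50% for 82. The epithelial mean ran from 0.0743% (Twist2) to 66.0% (Man1a2), and it was under 25% for 158 genes and under 5% for 57. Endothelial replicate 3 was the highest of the 6 other libraries for 157 genes, replicate 2 for 45, replicate 1 for 20 and an epithelial library for 12. Replicate 3 also had the highest sum of stromal markers of the endothelial libraries, and the part of this in the set was not tested. Without that library 571 genes lay above. In the opposite direction, leaving out endothelial replicate 1, the library with the most genes listed at 0, raised the genes below from 138 to 272.

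**Figure D5:**
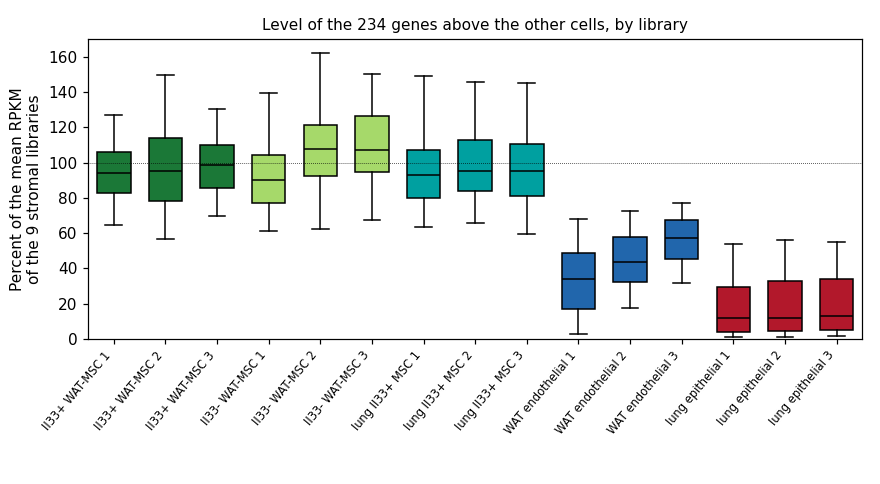
Level of the 234 genes above in each library, as a percent of their mean in the 9 stromal libraries, with boxes from the lower to the upper quartile, a line at the median and whiskers from the 5th to the 95th percentile of genes. Medians lie between 90.1 and 107% in the stromal libraries, are 34.0, 43.6 and 56.9% in the endothelial libraries and lie between 12 and 13.1% in the epithelial ones.

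The other contrasts were then read in the 2 sets. The rule fixes no direction for them but was applied to the same values, and it leaves out genes that vary widely within a group, so the counts are descriptions and the adjusted p-values are those of the fit of all genes. Between endothelial and epithelial libraries, 141 of the 234 genes above (60.3%) were called higher in endothelium and 0 lower (limma, adjusted p under 0.05), against 20.4% higher and 16% lower of all genes tested. Of the 234 differences 215 were positive, called or not, against 5441 of 9981 for all genes tested. The largest belonged to Dcn (log2 difference 4.59, adjusted p = 5.91e-09), Ccl11 (4.38, adjusted p = 8.11e-08), Cxcl1 (4.33, adjusted p = 2.86e-08) and Dpt (4.32, adjusted p = 1.76e-09) in the limma fit. The genes below were balanced, with 32 higher and 30 lower in endothelium (44.9% called, against 36.4% of all genes tested). Cdh5 (2.80), Flt1, the VEGF receptor 1 gene (2.74), Syt15, a synaptotagmin gene (3.27), and Ctla2a, a cysteine protease inhibitor gene (2.35), were higher in endothelium. Capsl (-4.95), Cd24a (-3.40), Gpd1 (-3.02) and Ttc9 (-2.38) were lower. Capsl, Gpd1 and Syt15 show the edge of the rule, since endothelium (Capsl, Gpd1) or epithelium (Syt15) was itself low for them. Gpd1, the cytosolic glycerol 3-phosphate dehydrogenase gene, was at most 0.30 RPKM in stroma and 0.58 to 1.54 RPKM in endothelial libraries, but 12.8 to 17.8 RPKM in epithelial ones.

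Within stroma, WAT and lung differed for 13 of the genes above (5.56%, against 5.51% of all genes tested), 5 higher in WAT and 8 higher in lung, where 2.09% and 3.42% of all genes tested were. The WAT mean joined Il33+ and Il33- WAT-MSC, whereas lung had only Il33+ MSC, so the contrast did not hold Il33 status equal. Fewer genes were called without Il33- WAT-MSC, as given in the closing section. A gene could thus mark all 9 libraries and still be graded between stromal populations. Egfr, the epidermal growth factor receptor gene, was 55.8 to 114 RPKM in the WAT-MSC libraries and 29.3 to 34.0 RPKM in lung Il33+ MSC (log2 difference 1.37, adjusted p = 0.000216 in limma). Svep1, Abca9, Fap and Lama2 were higher in WAT as well. Htra4, a serine protease gene, was 2.01 to 3.66 RPKM in WAT-MSC and 21.1, 13.9 and 19.8 RPKM in lung Il33+ MSC (-2.24, adjusted p = 0.000233 in limma). Adh1, an alcohol and retinol dehydrogenase gene, was 33.2 to 58.8 RPKM in WAT-MSC and 136, 131 and 99.2 RPKM in lung Il33+ MSC (-1.52, adjusted p = 0.0134 in limma). Gpsm2, Podn, Gpc3, Ces2g, Gpnmb and Plxdc2 were the others higher in lung.

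Il33+ and Il33- WAT-MSC were called different in 0 of the 234 genes by limma (25 at an unadjusted p under 0.05, lowest adjusted p = 0.0625), where 113 of all genes tested (1.13%) were called, and in 0 to 2 genes under the alternatives run. Of the genes below, 1 was called (0.725%). It was F11r, at 3.57, 10.3 and 11.2 RPKM in Il33+ and 1.68, 2.71 and 1.49 RPKM in Il33- WAT-MSC (log2 difference 1.56, adjusted p = 0.0478 in limma). The 12 mesothelial markers listed summed to 91.7, 214 and 219 RPKM in the same Il33+ libraries and to 54.7, 79.3 and 60.6 RPKM in the Il33- ones, and their part in this was not tested. Over the 9 stromal libraries, the highest value of a gene above was a median of 1.97 times the lowest, and it stayed under 2 times for 121 of 234 genes. The ratio was 1.16 for Lpp, a focal adhesion gene at 26.9 to 31.1 RPKM. It was 11.8 for Arhgap6, where a single library, lung Il33+ MSC replicate 1, stood at 31.8 RPKM and the other 8 at 2.70 to 6.25 RPKM.

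Scaling changed which genes passed more than it changed the lists. RPKM is relative to all alignments of a library, and dividing by median-ratio size factors moved the median stromal difference of all genes from 0.12 to -0.08 and the calls from 2121 higher and 1668 lower (56.0% higher) to 1639 and 2167 (43.1% higher). Of the 234 genes above, 141 met the rule again after median-ratio scaling, 166 after quantile normalization and 121 (51.7%) after both. For the 138 genes below these numbers were 132, 109 and 106 (76.8%). Of the 12 widest gaps above, 11 met it under both, the exception being Gsn under quantile normalization, and of the 12 below all met it under both scalings. Of the genes described above, Cxcl1, Timp2, Sfrp1, Lrp1, Lox and Zhx3 failed under both scalings. Dcn, Dpt, Fbn1, Col3a1, Sparc, Gpsm2 and Arhgap6 failed after quantile normalization, and C1qtnf1, Adamts5, Reck, Egfr, Lpp, Gpc3, Gpnmb, Abca9, Htra4, Man1a2 and Zmat3 after median-ratio scaling. Among the genes below, Pdgfb, Flt1, Ttc9, Syt15 and Capsl failed after quantile normalization and Lyve1 under both. With the most abundant transcript of each gene in place of the sum, 209 of the genes above and 127 of those below met the rule again. Among the genes named in the text, Ltbp1, Fst, Lpp, Egfr and Arhgap6 above and Adgrg1, Ceacam1 and Pnpla2 below failed it. The list medians kept their sign under both scalings for the matrix, protease, transcription factor, surface, signal, chemokine, complement, junction, polarity and Notch lists, and the reference genes moved from -0.02 to -0.28 and -0.41.

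Some of the genes were neighbours in the genome, and no count expected for sets of this size was computed. Of 233 genes above that could be placed, 15 lay next to another of them, among them Abca8b, Abca8a and Abca9 in a row on chromosome 11 (109932206 to 110168274 in GRCm38.p6), related ABC transporter genes between which reads may have been shared. Abca8b ran from 6.20 to 14.8 RPKM in stroma and Abca9 from 11.6 to 35.1 RPKM, with at most 5.17 and 9.86 RPKM in the others. Of the 138 genes below, 7 lay next to another.

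At the edge of the rule, Zmat3, a p53 target gene, was the gene above with the smallest gap. Its lowest stromal and highest other values both rounded to 11.2 RPKM. Cyp27a1, the sterol 27-hydroxylase gene, fell just outside with 6.53 RPKM as both its lowest stromal and its highest other value. Below, Lyve1, a hyaluronan receptor of lymphatic endothelium, was just inside, with 16.2 RPKM as its highest stromal and 16.3 RPKM as its lowest other value, and Klk11, a kallikrein gene listed at 0 in all 9 stromal libraries and in endothelial replicate 2, was just outside.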

How the data were processed

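Sorted cells of 5 populations, 3 libraries each, were profiled by RNA sequencing. Per the labels, cDNA was amplified with the Ovation system before library preparation, which may add noise for transcripts with few molecules. Per the labels and the study's methods, reads were trimmed, aligned with TopHat2 in Partek to mm10 and reported by the authors as RPKM per RefSeq transcript, and how the transcript list was filtered is not given in the sources used here. The deposited RPKM of 12698 transcripts were summed to 10222 gene symbols, of which 1786 had more than 1 transcript. The 9981 genes that reached an RPKM of 1 in 3 or more libraries were fitted as log2(RPKM + 1), with a pseudocount of 1, by limma 3.58.1 in R 4.3.3 (lmFit, eBayes with trend), with 1 mean per population and all 15 libraries in 1 fit. P-values were two-sided and adjusted by Benjamini-Hochberg over all genes tested, at a threshold of 0.05. The script was tested on simulated data.

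RPKM holds no counts, so no count test was run, and a transcript shared between symbols could not be resolved. Median-ratio size factors and quantile normalization were applied to these values as alternatives. Symbols of the gene lists were matched through RefSeq synonyms, and members of the lists with no row were not analysed here. Genes were placed with the RefSeq annotation of GRCm38.p6. Tables were handled with pandas 2.3.3 under Python 3.11.15 and figures drawn with matplotlib 3.10.9.

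The members, lists and named genes were chosen with earlier results of these data known. Named were the sort markers, the 12 widest gaps in each direction, up to 4 members of each list in each direction with the most abundant one outside the set, the genes next to the edge, and up to 4 genes in each direction of the other contrasts; exceptions are marked. Sums over the 8 marker lists are given for stromal, endothelial and leukocyte markers in the report and for the others in the closing section.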

Additional observations from a re-analysis of the deposited data

How the results depend on the processing

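Direction and call of the stromal difference were recomputed for 98 named genes under 28 alternatives. Of these genes 87 stayed on the same side of the threshold under each of them. The sign changed for Eef1a1, to -0.14 with median-ratio scaling and -0.61 with quantile normalization, and for Ctnnd1, to 0.34 with the most abundant transcript in place of the sum. The cause was not tested.

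A fit of 2 groups of 9 and 6 libraries, without populations, called 1404 genes higher and 981 lower. A filter at an RPKM of 5 called 1045 lower and 1 gene above between Il33+ and Il33- WAT-MSC, and median-ratio scaling and quantile normalization called 2 and 1 of these. A pseudocount of 0.1 called 36 genes below between endothelium and epithelium. Lane 1 alone, with fewer samples, called 852 higher and 244 lower, 104 and 31 against each other population, 912 above and 269 below, 0 between WAT and lung stroma, and 74 and 4 between endothelium and epithelium in the genes above and below. Lane 2 alone called 1106 lower and 27 higher than each other population, with 1005 above, 865 below and 5 between WAT and lung stroma. Without Il33- WAT-MSC, 404 genes lay above and 3 differed between WAT and lung stroma, and without lung Il33+ MSC 451 lay above and 242 below.

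Leaving out 1 library at a time gave 238 to 571 genes above (571 without endothelial replicate 3), 140 to 272 below (272 without endothelial replicate 1), 1726 to 2444 higher and 1014 to 1860 lower (1039 and 1014 without epithelial replicates 2 and 3). Genes higher than each other population numbered 253 to 746 (253, 317 and 746 without endothelial replicates 1, 2 and 3), and those lower than each 186 to 302. In the genes above, 7 to 20 were called between WAT and lung stroma, 0 to 2 between Il33+ and Il33- WAT-MSC and 124 to 159 between endothelium and epithelium, and in the genes below 42 to 57.

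Over 30 pairs of same-numbered libraries, r of their deviations ran from -0.078 to 0.149 (25 positive, 6 above 0.1, of which 5 between libraries numbered 3). All 10 pairs numbered 3 were positive. Since 24 of the 30 pairs shared a lane, number and lane cannot be told apart in these. As not every pair passed 0.1, the main fit did not take the numbers as pairing, and a batch shared by number was not tested. With the replicate block 2254 genes were called higher and 1739 lower. RPKM without counts limits what can be said of values near 0.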

Other observations

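The other marker lists were summed per library. Of 12 pericyte and smooth muscle markers 10 were listed, and they summed to 229 to 299 RPKM in endothelial libraries, 109 to 116 in lung Il33+ MSC, 34.6 to 41.4 in Il33+ WAT-MSC, 6.93 to 19.0 in Il33- WAT-MSC and 8.20 to 17.3 RPKM in epithelial libraries. In lung Il33+ MSC the sum was mostly Abcc9 (77.0 to 93.0 RPKM) and Kcnj8 (14.8 to 23.4 RPKM). Each other listed member was at most 4.71 RPKM there. Of 10 adipocyte markers 4 were listed, at 226 to 417 RPKM in endothelial libraries and at most 20.0 RPKM in stromal and 12.8 RPKM in epithelial ones. The endothelial sum was mostly 1 gene, Fabp4, at 187, 217 and 397 RPKM, with each other listed member at most 35.1 RPKM there. The lipase gene Pnpla2, also on this list, was among the genes below. Of 14 mesothelial markers 12 were listed, at 91.7 to 219 RPKM in Il33+ WAT-MSC, 47.9 to 79.3 in the other stromal libraries, 76.4 to 312 in endothelial and 164 to 296 RPKM in epithelial libraries. The epithelial sum was mostly Krt19, also on the lung epithelial list, at 75.5 to 153 RPKM and Ezr at 79.8 to 134 RPKM. Each other listed mesothelial marker was at most 5.54 RPKM there. Of 7 erythroid markers 6 were listed, at 0.24 to 68.6 RPKM in stromal, 19.9, 232 and 411 in endothelial and 2.48 to 18.6 RPKM in epithelial libraries. The 20 lung epithelial markers summed to 61.0 to 188 RPKM in WAT-MSC, 224 to 600 in lung Il33+ MSC, 151 to 235 in endothelial and 165000 to 214000 RPKM in epithelial libraries. The sum was mostly Scgb1a1 in WAT-MSC, at 56.1 to 134 RPKM, and in epithelial libraries, at 160613 to 208003 RPKM.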
